A study of Mus musculus with 7 samples.

Results

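The genes described here code for the first, committed steps of branched-chain amino acid breakdown and for the kinase that switches them off: Bcat2, Bckdha, Bckdhb, Dbt and Bckdk. They were chosen by name, as every probe set (the group of short probes that reports on a transcript) to which the array's annotation gives exactly 1 symbol out of a list of 6. Each of these 5 genes had 1 probe set, so 5 probe sets of 22626 and 5 genes of 12393 with a probe set of their own were taken. The phosphatase gene Ppm1k was the other symbol on the list and was not analysed here. Whole-heart RNA had been hybridised to 7 Affymetrix arrays, 1 for each sample. The 4 wild-type (WT) and 3 KLF15-null hearts were all labelled as coming from male C57/BL6 mice aged 3 to 4 months and fasted for 18 h, and an effect of fasting itself was not tested. KLF15-null mice lack Krüppel-like factor 15, a zinc-finger transcription factor. The sources used here do not state how the allele was made or whether the mice were littermates. Nothing in the labels states that each array held a different animal, and the p-values measure the spread between these 7 arrays.

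Leucine, isoleucine and valine are broken down mainly in muscle, heart, kidney and other tissues outside the liver, because the mitochondrial transaminase BCAT2 is scarce in hepatocytes. BCAT2 moves the amino group to α-ketoglutarate in a reversible step, and the branched-chain ketoacid dehydrogenase complex (BCKDH) then removes a carboxyl group irreversibly. BCKDH is built of a thiamine-dependent decarboxylase (E1, with α subunits from Bckdha and β subunits from Bckdhb), a lipoyl-bearing transacylase core (E2, from Dbt) and a dihydrolipoamide dehydrogenase (E3, from Dld) that it shares with the pyruvate and oxoglutarate dehydrogenases. The kinase BCKDK phosphorylates the E1 α subunit and turns the complex off, and the phosphatase PPM1K turns it on again. KLF15 is known as an activator of amino acid breakdown genes, Bcat2 among them, in skeletal muscle and liver.

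Array medians of the log2 signal ran from 6.31 to 6.33 in WT and from 6.22 to 6.23 in KLF15-null hearts, with no overlap. Pearson's r between arrays was 0.995 to 0.997 within WT and 0.986 to 0.993 within KLF15-null hearts. Between the genotypes it was 0.942 to 0.964. The 98th percentile of an array was 11.43 to 11.74 in WT and 11.86 to 12.02 in KLF15-null hearts, so that the brightest probe sets read higher in KLF15-null hearts as deposited. Klf15 itself, on its single probe set, read 8.68, 8.98, 8.73 and 9.08 on WT arrays 1 to 4 and 6.52, 6.23 and 6.23 on KLF15-null arrays 1 to 3. It fell by 2.54 on the log2 scale (SE 0.13, limma adjusted p = 1.26e-06). As no source used here says which part was deleted, the probe set may lie outside it. The fall shows a lower Klf15 signal on the arrays labelled KLF15-null, and not the deletion itself. Cardiac myosin Myh6 was among the brightest genes in each genotype (14.01 in WT and 14.22 in KLF15-null hearts). The skeletal muscle myosin genes Myh1 and Myh4 and the hepatocyte gene Alb lay below the signal filter, set at the 40th percentile of all probe sets (log2 5.74).

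The upstream regions of the genes are shown because the transaminase and dehydrogenase genes moved together in these hearts, beside that of the kinase gene, whose change did not pass the test. Each is the 250 bases before an annotated start, 5′ to 3′ on the strand of the gene, from RefSeq on GRCm38.p6. Of the 5 genes, 4 had an entry. Capitals mark every match to CACCC, the short box many Krüppel-like factors bind, or to GGGCGG, the GC box, on either strand (GGGTG and CCGCCC read along the gene).
Bckdhb, chr9:83924887-83925136, plus strand: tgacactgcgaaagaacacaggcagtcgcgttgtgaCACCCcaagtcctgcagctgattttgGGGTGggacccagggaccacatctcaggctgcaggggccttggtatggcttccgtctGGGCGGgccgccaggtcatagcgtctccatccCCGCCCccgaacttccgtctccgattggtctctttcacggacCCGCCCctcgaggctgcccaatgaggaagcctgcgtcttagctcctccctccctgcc
Bcat2, chr7:45569903-45570152, plus strand: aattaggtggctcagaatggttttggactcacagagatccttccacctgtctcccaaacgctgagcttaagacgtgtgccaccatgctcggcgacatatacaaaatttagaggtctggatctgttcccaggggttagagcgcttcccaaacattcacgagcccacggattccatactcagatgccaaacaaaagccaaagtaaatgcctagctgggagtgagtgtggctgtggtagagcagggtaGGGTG
Bckdha, chr7:25658762-25659011, minus strand: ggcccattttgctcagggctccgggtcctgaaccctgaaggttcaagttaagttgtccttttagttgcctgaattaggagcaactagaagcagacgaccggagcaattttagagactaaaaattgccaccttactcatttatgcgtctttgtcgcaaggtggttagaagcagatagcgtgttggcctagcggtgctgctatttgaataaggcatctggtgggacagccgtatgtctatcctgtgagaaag
Bckdk, chr7:127903823-127904072, plus strand: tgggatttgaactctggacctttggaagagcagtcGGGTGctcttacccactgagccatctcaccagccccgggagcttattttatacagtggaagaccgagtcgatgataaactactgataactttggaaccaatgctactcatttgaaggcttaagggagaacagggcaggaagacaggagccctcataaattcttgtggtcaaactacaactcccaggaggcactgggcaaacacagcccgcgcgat
The Bckdhb region held 3 GC boxes, with their first bases 131, 99 and 57 bases before the start, and 2 CACCC boxes, at 214 and 188 bases. Bcat2 and Bckdk held 1 CACCC box each, 5 and 215 bases before the start, and no GC box, and Bckdha held neither. No match overlapped another. The upstream regions of second annotated starts of Bcat2 and Bckdhb held neither motif. Over all 32851 such regions 52.0% held a CACCC box and 32.7% a GC box, while 8.47% held 3 or more GC boxes and 21.1% held 2 or more CACCC boxes. The G and C share was 63.2% in the Bckdhb region, 50.4% for Bcat2, 50% for Bckdk and 47.6% for Bckdha, against a median of 52.4%. These are matches of letters, and no binding was measured.

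The comparison asked which of these genes differ between KLF15-null and WT hearts after the fast. The signal of the transaminase gene and of the genes of all 3 subunits that BCKDH does not share was lower in KLF15-null hearts. It stood at between 28.1% and 51.7% of the WT signal. Each gene rests on 1 probe set, and probe sets of the same gene could disagree in these data, as given below. The E1 β subunit gene Bckdhb differed most and the E1 α subunit gene Bckdha least of the 4. The kinase gene Bckdk stood at 85.5% of WT, a difference that did not pass the test. Of the 5 probe sets, all of them above the signal filter, 4 were called lower at a limma adjusted p under 0.05 and 1, that of Bckdk, was not called. Of the 13576 probe sets tested 23.8% were called lower (3235) and 26.8% higher (3637), and after median centring of the arrays 2593 were lower and 4473 higher. The median difference of the 5 was -1.33 (KLF15-null minus WT on the log2 scale, as for all differences given here), and that of all probe sets tested was 0.00. In whole-heart RNA, fewer cells of a type and less RNA per cell cannot be told apart.

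**Figure D1:**
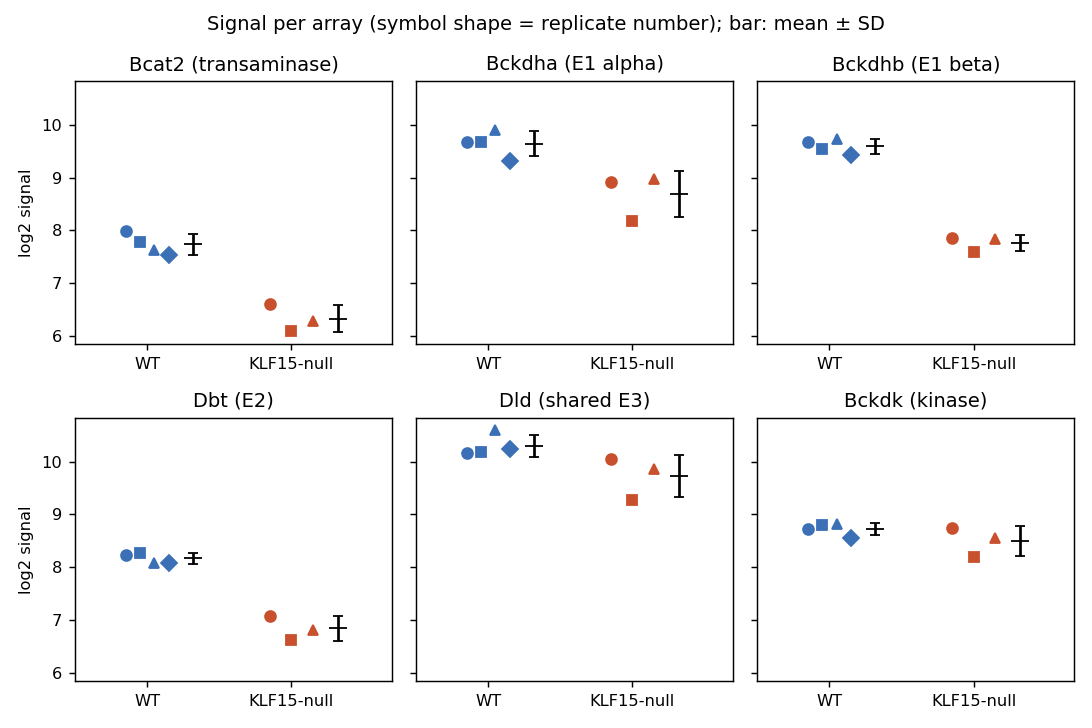
Log2 signal (vertical axis) of Bcat2, Bckdha, Bckdhb, Dbt, Dld and Bckdk on each of 4 WT (blue) and 3 KLF15-null (red) arrays, with symbol shape giving the replicate number and the black bar the mean ± SD. The 2 genotypes do not overlap for any gene but Bckdk, and KLF15-null array 2 is the lowest of the 3 KLF15-null arrays in every panel.

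Bcat2, the transaminase of the first step, read 7.997, 7.78, 7.63 and 7.53 on WT arrays 1 to 4. On KLF15-null arrays 1 to 3 it read 6.60, 6.09 and 6.29. Every KLF15-null value lay below every WT value, with 0.93 between the nearest arrays, which is more than the range within either genotype (0.46 and 0.51). The mean fell from 7.74 ± 0.20 (SD, n = 4) to 6.32 ± 0.26 (SD, n = 3), a difference of -1.41 (SE 0.15, 95% interval -1.74 to -1.08, limma adjusted p = 4.58e-05), or 2.66-fold. In rank among all probe sets by group mean it moved from the 73.0th to the 51.6th percentile. Of all probe sets tested 3.40% fell further. The cytosolic isoenzyme gene Bcat1, which is known mainly from brain and proliferating cells, had 2 probe sets, each below the filter in both genotypes (4.40 and 4.53 in WT, 4.89 and 4.48 in KLF15-null hearts), and it was not tested.

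Bckdhb, the E1 β subunit, read 9.67, 9.55, 9.73 and 9.42 on the WT arrays and 7.85, 7.59 and 7.85 on the KLF15-null arrays. The arrays nearest to each other across the genotypes were 1.57 apart, against a range of 0.30 among the WT arrays and 0.25 among the KLF15-null arrays. The difference was -1.83 (SE 0.12, 95% interval -2.09 to -1.56, limma adjusted p = 3.53e-06), a 3.55-fold lower signal, and 1.55% of the probe sets tested fell further. Its spread was the smallest of the 5 genes in KLF15-null hearts (SD 0.15, n = 3).

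Bckdha, the E1 α subunit and the target of the kinase, read 9.68, 9.68, 9.90 and 9.32 on the WT arrays. It read 8.92, 8.18 and 8.97 on the KLF15-null arrays, where array 2 lay well below the others. The genotypes did not overlap, and the nearest arrays were 0.35 apart, less than the range within either genotype (0.58 and 0.79). Bckdha fell by 0.95 (SE 0.21, 95% interval -1.42 to -0.49, limma adjusted p = 0.00383), and 7.29% of the probe sets tested fell further. Without KLF15-null array 2 the difference was -0.70 (limma adjusted p = 0.00447).

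Dbt, the E2 core of the complex, read 8.24, 8.27, 8.08 and 8.08 on the WT arrays, the tightest WT group of the 5 genes (SD 0.10, n = 4). It read 7.08, 6.62 and 6.81 on the KLF15-null arrays, so that the nearest arrays of the genotypes were 0.998 apart. The difference was -1.33 (SE 0.12, 95% interval -1.60 to -1.06, limma adjusted p = 2.25e-05), a 2.52-fold lower signal. For each of Bcat2, Bckdha, Bckdhb and Dbt the exact two-sided permutation p over the 35 splits of the arrays was 0.0286, the smallest that 4 against 3 arrays allow. Complete separation with KLF15-null lower was found for 25.4% of all probe sets tested.

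Bckdk, the kinase that inactivates BCKDH, read 8.73, 8.80, 8.82 and 8.56 on the WT arrays and 8.75, 8.19 and 8.56 on the KLF15-null arrays. KLF15-null array 1 lay among the WT values and array 3 beside WT array 4, so the genotypes overlapped and only array 2 stood clearly below. The difference was -0.23 (SE 0.14, 95% interval -0.55 to 0.09, limma adjusted p = 0.214; exact permutation p = 0.200). The interval reaches from 0.55 lower to 0.09 higher and so includes falls of moderate size. Without KLF15-null array 2 the difference was -0.07 (limma adjusted p = 0.615). It became a call, lower by 0.30, after cyclic loess normalization (limma adjusted p = 0.0418). After quantile normalization it was -0.28 (limma adjusted p = 0.0501) and after median centring -0.13 (limma adjusted p = 0.468).

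**Figure D2:**
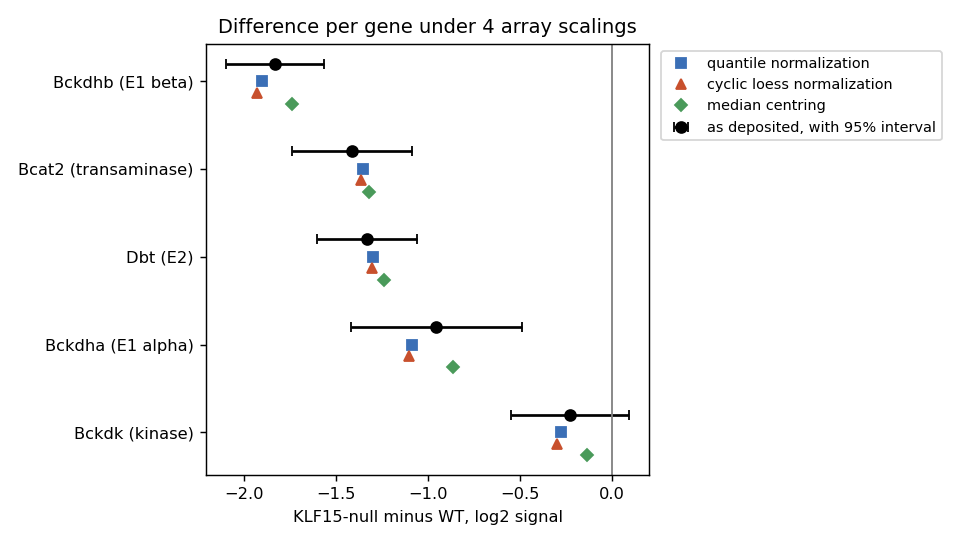
Difference between KLF15-null and WT hearts on the log2 scale (horizontal axis) for each of the 5 genes, as deposited (black, with 95% interval) and after quantile (blue squares), cyclic loess (red triangles) and median (green diamonds) scaling of the arrays. The order Bckdhb, Bcat2, Dbt, Bckdha, Bckdk is the same under each scaling, and the interval of Bckdk alone includes 0.

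Array scaling moved the other 4 genes little. Over the 3 scalings the difference ran from -1.93 to -1.74 for Bckdhb, from -1.36 to -1.32 for Bcat2, from -1.30 to -1.24 for Dbt and from -1.10 to -0.86 for Bckdha, and each kept its call. By the size of the difference, Bcat2 and Dbt are neighbours whose 95% intervals largely overlap, and their order was not tested.

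Differences between genes within an array do not move with a shift of the whole array, and they were used to ask whether the subunits of E1 changed by the same amount. Only their change between genotypes has a meaning, because probe sets differ in brightness for equal amounts of RNA. Bckdhb minus Bckdha was -0.01, -0.13, -0.17 and 0.11 on the WT arrays and -1.07, -0.59 and -1.12 on the KLF15-null arrays. All 3 KLF15-null values lay below all WT values. The Bckdhb probe set thus fell by 0.88 more than the Bckdha probe set on the log2 scale (exact two-sided permutation p = 0.0286, the smallest that 35 splits allow). This pair was planned, but the genes were chosen with earlier results of these data known. Each subunit gene has a single probe set, so a difference between transcripts cannot be told from a difference between probe sets. Probe sets of the same gene could disagree in these data, as given below for Pdha1 and Pdk1.

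The same differences were taken against the kinase gene after the values had been seen, as a description with no test. Bckdhb minus Bckdk was 0.75 to 0.94 in WT and -0.90 to -0.59 in KLF15-null hearts, a shift of -1.60. Bcat2 minus Bckdk was -1.18 to -0.73 in WT and -2.27 to -2.10 in KLF15-null hearts, a shift of -1.19. Dbt minus Bckdk was -0.73 to -0.48 in WT and -1.75 to -1.57 in KLF15-null hearts, a shift of -1.10. Bckdha minus Bckdk, the kinase target against the kinase, was 0.76 to 1.08 in WT and -0.01 to 0.41 in KLF15-null hearts, a shift of -0.73. None of the 4 overlapped between genotypes, KLF15-null array 2 included, although that array was the lowest for each gene alone. Each of the 4 genes set against Bckdk was already separated by genotype on its own, as were 25.4% of all probe sets tested with KLF15-null lower. How often such differences separate over all probe sets was not counted.

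**Figure D3:**
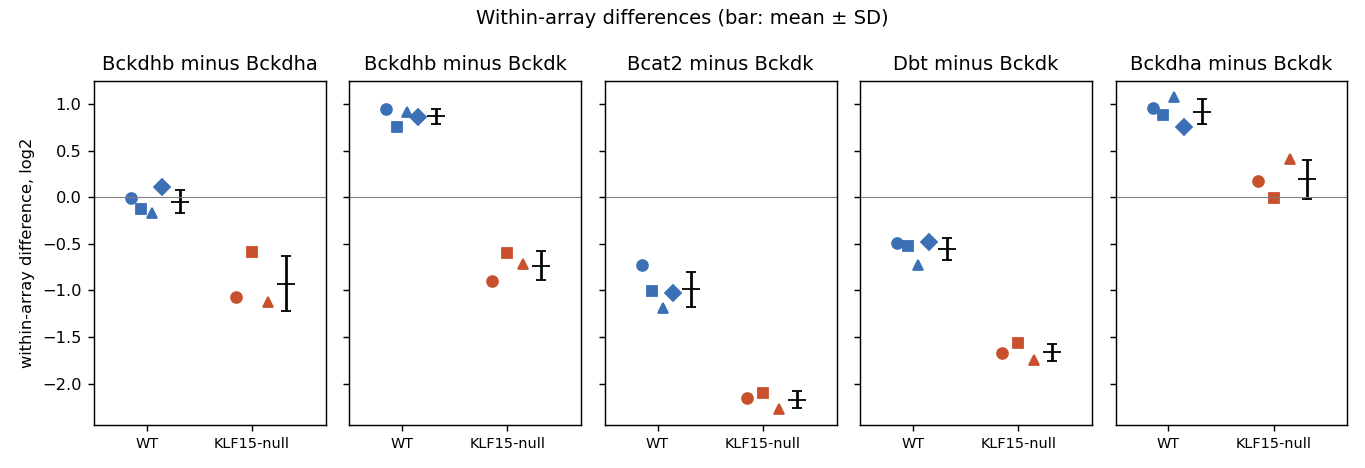
Within-array log2 difference between 2 genes (vertical axis) on each of 4 WT (blue) and 3 KLF15-null (red) arrays for 5 pairs, with the mean ± SD as a black bar and symbol shape as the replicate number. In every pair the KLF15-null values lie below the WT values, with a mean shift of -1.60 for Bckdhb minus Bckdk and -0.73 for Bckdha minus Bckdk. How often other pairs of genes separate was not counted.

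Within a genotype the 5 genes also tended to be high or low on the same arrays. All 5 lay below their genotype's mean on WT array 4 and on KLF15-null array 2, and all 5 lay above it on WT array 1, though Bckdk there by only 0.000981, and on KLF15-null array 1. Pearson's r of the deviations from the genotype means over the 7 arrays was between 0.52 (Bckdhb with Dbt) and 0.94 (Bckdha with Bckdhb) for the 10 pairs of genes. Over the 7 arrays with genotype left in, r was between 0.63 (Bckdhb with Bckdk) and 0.99 (Bcat2 with Dbt). These points share their arrays and the scaling of each array. Over all probe sets tested, 55.6% lay below the genotype mean on KLF15-null array 2 and 58.9% on WT array 4, with a median deviation of -0.03 on each, and 43.3% did on KLF15-null array 1 and 58.4% on WT array 1. On KLF15-null array 2 the deviations were -0.51 for Bckdha, -0.31 for Bckdk, -0.23 for Bcat2, -0.22 for Dbt and -0.17 for Bckdhb.

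Among 8291 named genes, those with the highest Pearson r to Bckdhb over the 7 arrays were Tcn2, the transcobalamin gene of vitamin B12 transport, Mtg2 and the glutathione transferase gene Gstk1 (r = 0.998, 0.997 and 0.997). Their differences were -0.82, -1.14 and -3.06, so likeness in pattern did not mean likeness in size. For Dbt they were Plekha5, Bclaf1 and Rpf1, and for Bcat2 they were Klhl24, Plekha5 and Gtf3c2, so that Plekha5 stood high for each of the 2. For Bckdha they were Bbs2, Thap12 and Stk39 (r = 0.99 for each). For Bckdk they were Mrpl48, Popdc2 and Eif4b, at r = 0.99, 0.99 and 0.99, with differences of -0.27, -0.31 and -0.16. With 7 arrays and this many genes such values are high for many genes and describe the pattern only.

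Dld, the E3 that BCKDH shares with other complexes, read 10.17, 10.18, 10.61 and 10.23 on the WT arrays and 10.04, 9.27 and 9.85 on the KLF15-null arrays. It fell by 0.58 (SE 0.19, limma adjusted p = 0.0302), to 67.1% of WT. The call was lost after median centring (limma adjusted p = 0.0603) and without any one of WT arrays 2, 3 and 4 or KLF15-null arrays 2 and 3. Without KLF15-null array 2 its difference was -0.35 (limma adjusted p = 0.0703). Bckdhb minus Dld moved by -1.25 between the genotypes, from between -0.88 and -0.50 to between -2.19 and -1.68 with no overlap. This was again a description, and how often other pairs separate was not counted.

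The related complexes give a comparison for BCKDH. Of 9 measured genes of the pyruvate and oxoglutarate dehydrogenases and the pyruvate dehydrogenase kinases, 1 was lower, 2 were higher and 6 did not pass the test, with a median difference of 0.02. A gene with several probe sets is represented by its brightest one across the 7 arrays, and 19.6% of all 8404 genes tested were called lower and 27.4% higher, with a median of 0.02. The E1 genes Pdha1 and Pdhb differed by -0.09 and 0.02, not past the threshold, against -0.95 and -1.83 for the E1 genes of BCKDH. Both were called lower after quantile (-0.44 and -0.35) and cyclic loess normalization (-0.50 and -0.37). The E2 gene Dlat rose by 0.67 (SE 0.14, limma adjusted p = 0.00338), against -1.33 for Dbt, but 2 other Dlat probe sets differed by 0.06 and 0.02. A second, dimmer probe set of Pdha1 fell by 1.79. Of the kinases, Pdk2 fell by 1.44 (SE 0.24, limma adjusted p = 8.06e-04) and Pdk1 rose by 0.62, though a second Pdk1 probe set fell by 0.44. Pdk4, the fasting-induced kinase, stood at 13.16 in WT and 13.29 in KLF15-null hearts, a difference of 0.13 not past the threshold. Its direction depended on the processing. Pdk4 was called lower after cyclic loess normalization (-0.34, limma adjusted p = 0.0018) and higher with array weights (0.24, limma adjusted p = 0.0464). Scaling mattered for these bright genes, with 4 of 9 lower after quantile (median -0.13) and 5 of 9 after cyclic loess normalization (median -0.34). The difference between the families was not tested.

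**Figure D4:**
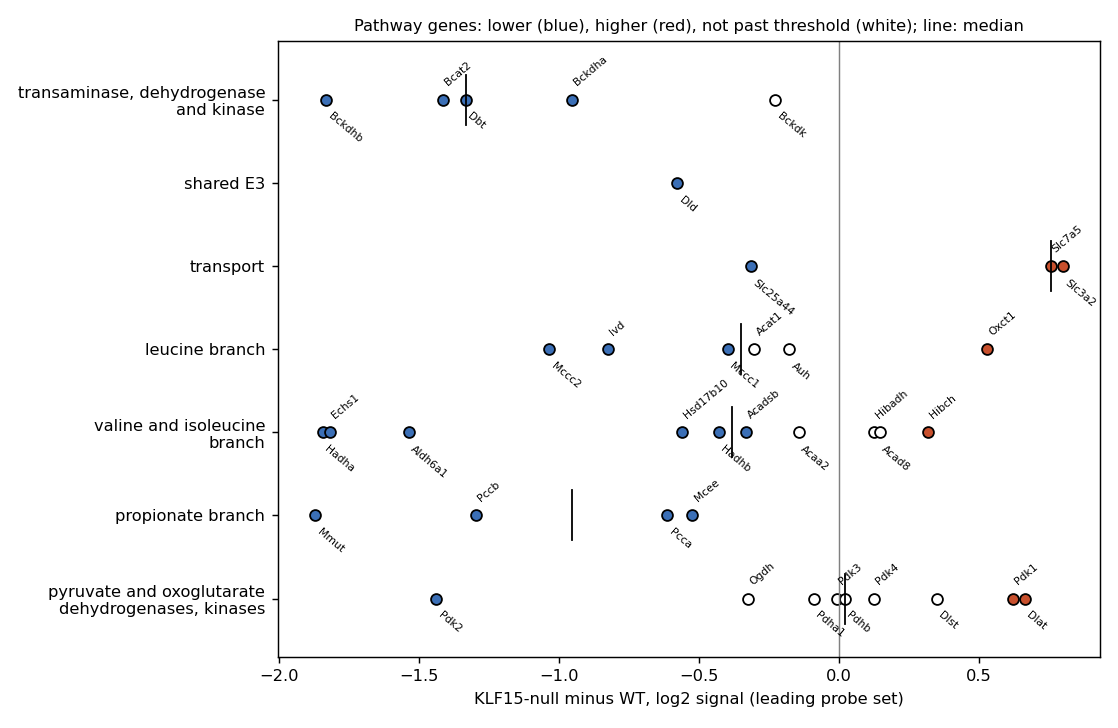
Difference between KLF15-null and WT hearts on the log2 scale (horizontal axis) for every measured gene of each list (rows), with blue for genes called lower, red for higher and white for those not past the threshold, and a black line at the median of each list with more than 1 gene. The 3 unshared BCKDH subunit genes and Bcat2 lie between -1.83 and -0.95. The pyruvate and oxoglutarate dehydrogenase and kinase genes run from -1.44 (Pdk2) to 0.67 (Dlat), with a median of 0.02 as deposited. That median was -0.34 after cyclic loess normalization and 0.11 after median centring.

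On the supply side of the transaminase, 2 of 3 measured amino acid transport genes were higher and 1 lower. Over all 8404 genes tested 27.4% were called higher and 19.6% lower. Slc7a5 and Slc3a2, the light and heavy chains of the large neutral amino acid transporter that carries leucine across the plasma membrane, rose by 0.76 (SE 0.12, limma adjusted p = 7.56e-04) and 0.80 (SE 0.15, limma adjusted p = 0.00153). Slc25a44, a mitochondrial carrier of branched-chain amino acids, fell by 0.31 (limma adjusted p = 0.0275), a call that was lost after quantile (adjusted p = 0.0651) and median (adjusted p = 0.0899) scaling and without any one of WT arrays 1, 2 and 4 and KLF15-null array 3.

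Downstream of BCKDH, 13 of 20 measured genes were lower, 2 were higher and 5 did not pass, with a median of -0.48 against -1.33 for the 5 genes above it. The shares over all genes tested, for these and the branch counts below, were 19.6% lower and 27.4% higher, with a median of 0.02. In the propionate branch, where valine and isoleucine carbon enters the citric acid cycle, 4 of 4 genes were lower. Pccb had the smallest p of these and fell by 1.29 (limma adjusted p = 3.49e-05). Mmut, the methylmalonyl-CoA mutase, fell by 1.87 (SE 0.21, limma adjusted p = 7.39e-05), about as much as Bckdhb, and by 0.95 on a second probe set. In the valine and isoleucine branch 6 of 10 were lower, Hadha (-1.84), Echs1 (-1.82) and Aldh6a1 (-1.53) among them, and 1 was higher. In the leucine branch 3 of 6 were lower, Ivd (-0.82) among them, and 1 was higher. The 3 include Mccc2 (-1.03), which passed the filter through WT alone (6.48 against 5.44 in KLF15-null hearts); under the filter at the 60th percentile, which it does not pass, 2 of 5 leucine branch genes and 12 of 19 downstream genes were lower. The higher genes were Oxct1 (0.53, limma adjusted p = 0.00359), the ketone body transferase, and Hibch (0.32, limma adjusted p = 0.0466), and neither was called after quantile or cyclic loess normalization. The genotypes overlapped for Hibch, whose call was also lost with no filter (limma adjusted p = 0.0558), with the replicate block (limma adjusted p = 0.121) and without any one of WT arrays 1, 2 and 4 and KLF15-null arrays 1 and 3. Brighter and dimmer probe sets of Hadhb (-0.43 and 0.90), Hsd17b10 (-0.56 and 0.34) and Acat1 (-0.30, not past the threshold, and 0.41) went opposite ways. Of the genes that did not pass, Hibadh (0.13) fell by 1.09 on a second probe set, and Acaa2 (-0.14) was called lower on its others (-0.55 and -3.90). After median centring 9 of the 20 were lower, and after quantile normalization 17. The lower calls of Mccc1, Mcee, Acadsb and Hsd17b10 were lost after median centring and in other settings. That of Hadhb was lost without KLF15-null array 2 or 3. Without KLF15-null array 2, 10 of the 20 were lower and 3 higher. In the valine and isoleucine branch 3 of 10 were then lower and 2 higher.

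Some markers of cell types differed between the genotypes too. Of 30 measured markers, those of cardiomyocytes included, 5 were called lower and 6 higher. Of all 8404 genes tested 19.6% were called lower and 27.4% higher, so neither share was larger among the markers. Of 5 measured macrophage and monocyte markers 3 were higher. The summed linear signal of the 5 ran from 1901 to 2989 on the WT arrays and from 3677 to 5341 on the KLF15-null arrays. Adgre1 (0.08) and Cd68 (0.36) did not pass the test, though Cd68 was called higher with the replicate block and without WT array 4. The call of Csf1r (0.90) was lost after quantile normalization (limma adjusted p = 0.0521). Of 3 neutrophil markers 2 were higher (166 to 283 in WT, 513 to 666 in KLF15-null hearts), and Csf3r (-0.05) did not pass the test. Of 6 fibroblast markers 2 were lower and 1 higher (5398 to 9813, and 4396 to 5202), and of 5 endothelial markers 2 were lower (1497 to 1934, and 1084 to 1656). The higher call, of Pdgfra, was lost after cyclic loess normalization and without WT array 2. The endothelial gene Kdr (0.46) was called higher after median centring, with array weights, with the replicate block and without KLF15-null array 2. Cdh5 (-0.14) was called lower without KLF15-null array 1. Of 6 cardiomyocyte markers none passed the test in either direction (69121 to 78938, and 74409 to 79355; 0 called, with 2 at an unadjusted p under 0.05), with a median of 0.17. Their direction depended on scaling: 5 of the 6 were called lower after cyclic loess normalization (median -0.34) and 1 after quantile normalization (median -0.04), while 3 were called higher after median centring (median 0.26), with array weights and without WT array 3. Among cell types with few measured markers, the adipocyte gene Fabp4 and the skeletal muscle genes Acta1 and Ckm did not pass the test, nor did the hepatocyte gene Ttr (0.05). The hepatocyte gene Apoa1 (-0.34) was called lower, but it passed the filter through WT alone (5.98 against 5.64 in KLF15-null hearts), and the call was lost without KLF15-null array 3 (limma adjusted p = 0.0538) and with the replicate block (limma adjusted p = 0.0697). The part of these markers in the lower signal of Bcat2 and the BCKDH genes was not tested.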

How the data were processed

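Per the labels' protocols, Trizol RNA of flash-frozen hearts was amplified with a one-cycle kit that primes at the 3' end and labelled with biotin. The authors deposited 1 table, which was taken to hold log2 signals because its values run from 3.20 to 14.28. The submitters' processing notes name GCOS without a version or role; the sources used here do not state how probe sets were summarized or arrays scaled, steps that bear on the bright genes most. Array medians lay within a limit of 0.15, so the values were used as deposited.

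Of 22626 probe sets 20380 had 1 symbol, 691 several and 1555 none in the platform annotation. The 13576 probe sets with a mean at or above the 40th percentile were fitted with limma 3.58.1 in R 4.3.3 (empirical Bayes with an intensity trend, no covariate, two-sided), and p was adjusted by Benjamini-Hochberg across these probe sets, with a threshold of 0.05. The script was tested on simulated data. A pathway gene stands by its brightest probe set with 1 symbol. Up to 4 genes of each list were to be named by smallest p, but not every such gene is named. Others were named after their values were seen. Likeness took the 3 genes with the highest r to each gene. A planned within-array difference between kinase and phosphatase was not run, since Ppm1k was not analysed here. The E1 difference was the only such test run, and its p was not adjusted. That test was planned, but not blind to these data, as its genes were among those chosen with earlier results known. Offsets that had been planned for linear values were not needed. The genes and lists were chosen with earlier results of these data known.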

Additional observations from a re-analysis of the deposited data

How the results depend on the processing

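Bcat2, Bckdha, Bckdhb, Dbt and Klf15 kept their direction and their call under every alternative run: array weights, a fit without the intensity trend, the 3 scalings (median, quantile, cyclic loess), a filter at the 60th percentile or none, a threshold of 0.1, a replicate block and the removal of each array. Bckdk passed the threshold only after cyclic loess normalization, at -0.30; the cause was not tested. Leaving out each array gave -1.89 to -1.75 for Bckdhb, -1.55 to -1.29 for Bcat2, -1.45 to -1.22 for Dbt, -1.09 to -0.70 for Bckdha and -0.35 to -0.07 for Bckdk. The difference between the E1 subunits ran from -1.05 to -0.78, where fewer arrays allow no exact p below 0.0667 or 0.1. Replicate numbers were not taken as pairs, since the deviations of arrays with the same number correlated at -0.11, 0.00 and 0.19. With the replicate block, Bckdhb stood at -1.89 and Bckdk at -0.28, and no call of the 5 genes changed. The 2 downstream genes called higher were 1 with no filter, with the replicate block and when a gene's probe sets were averaged, 0 after quantile and cyclic loess normalization, and 1 to 3 when an array was left out. Counts of lower and higher probe sets stayed within 1.5 times under each alternative. The number of arrays limits the precision, and each gene rests on 1 probe set.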
